A study of Mus musculus with 44 samples.

Results

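Selenoproteins are the proteins that carry selenocysteine, an amino acid built on its own tRNA and inserted at a UGA codon that would otherwise end translation. A hairpin after the coding sequence, read by the binding protein SECISBP2 and the elongation factor EEFSEC, recodes that UGA, and a messenger whose UGA is not recoded can be degraded when an exon junction follows the codon. Liver is the organ that secretes selenoprotein P (Selenop), which carries selenium through the plasma to other organs. Most of the other members reduce peroxides or protein disulfides, and the deiodinase Dio1 activates thyroid hormone.

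The levels of 10 selenoprotein genes were followed here in 44 RNA-Seq libraries. The members were taken from a list of names, namely Selenop, Selenoo, Selenow, Selenon, Gpx1, Gpx3, Gpx4, Txnrd1, Txnrd2 and Dio1, and each was matched by its symbol to 1 of the 38202 genes of the tables. They make up 10 of the 24 selenoprotein genes of the mouse. The list names no value or comparison, but it was drawn up with earlier results of these libraries known, so the tests of its members are given as a description.

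The libraries came from liver and skeletal muscle of 11 wild-type (WT) and 11 Slc16a13 knockout (KO) male mice, the same animals for both tissues. KO mice were homozygous for a CRISPR/Cas9 deletion of the promoter and first exons of Slc16a13, a monocarboxylate transporter gene, in every cell of the body, and WT mice were their littermates on C57BL/6N. All mice had eaten high-fat diet (HFD) for 15 weeks and were killed at 20 weeks of age, after an overnight fast by the study's general methods, so no chow-fed or fed animals stand beside them. Poly(A) RNA was sequenced, the total count was between 20150712 and 35218243 reads per library, and the level of a gene is given as the RPKM value deposited by the authors, which divides the reads of a gene by its length and by library size, unless log2 is stated. In bulk tissue, fewer cells of a type and less RNA per cell cannot be told apart.

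The deleted gene was examined first. In liver, Slc16a13 had 99 to 302 reads in WT and 0 to 8 reads in KO libraries. In muscle it had 4 to 22 reads in WT libraries and 11 to 40 reads in the others. Its log2 difference there was 0.64 (p = 0.0071, adjusted p = 0.49 over all genes by edgeR's quasi-likelihood test). The muscle reads thus did not show the loss that the label names, and these are called the muscle libraries labelled KO. Counts are per gene, so whether the reads came from the deleted exons is not known and the genotype is not settled by them. Tissue labels fitted the markers: 8 hepatocyte genes summed to at least 68909 RPKM in every liver and at most 33.4 in any muscle library, and 8 myofibre genes to at least 81746 in every muscle and at most 35.9 in any liver library. Leptin (Lep) was at 0 in all liver libraries, and the Kupffer cell gene Clec4f at 0 in all muscle libraries. In the KO livers 532, 583, 602 and 611, named by animal number, log2 CPM (the count of a gene scaled to library size) fell with gene length relative to the mean liver library, with slopes of -0.53, -0.25, -0.42 and -0.08, against 0.04 to 0.10 in WT livers and 0.04 to 0.11 in the other 7 KO livers. The liver results of the members between genotypes are therefore given with and without these 4 libraries.

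The codon that defines the family is shown for each member, since it is the feature all 10 share. Each line gives the coding strand read 5′ to 3′ around the selenocysteine codon, which is in capitals as TGA, with 15 bases on each side or fewer where the coding sequence ends. The codon positions are from GRCm38 with GENCODE annotation, used here as the reference since the sources used here give no build for the counts, and all lie in coding exons.
Gpx1 (chr9:108339451-108339453, plus strand): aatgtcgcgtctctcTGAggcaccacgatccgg
Gpx3 (chr11:54907256-54907258, plus strand): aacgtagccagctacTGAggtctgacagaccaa
Gpx4 (chr10:80054737-80054739, plus strand): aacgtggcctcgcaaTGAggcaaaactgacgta
Txnrd1 (chr10:82896037-82896039, plus strand): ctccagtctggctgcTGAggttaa
Txnrd2 (chr16:18477772-18477774, plus strand): actgtgactggttgcTGAggctaa
Selenow (chr7:15920464-15920466, minus strand): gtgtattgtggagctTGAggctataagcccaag
Selenon (chr4:134542338-134542340, minus strand): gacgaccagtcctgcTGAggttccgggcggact
Selenoo (chr15:89099975-89099977, plus strand): gaactctgtgtaacaTGAtcctcataa
Dio1 (chr4:107297700-107297702, minus strand): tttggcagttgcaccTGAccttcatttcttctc
Selenop, codon 59 (chr15:3274848-3274850, plus strand): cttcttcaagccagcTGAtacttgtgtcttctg

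Selenop alone of the 10 genes holds more than 1 such codon. It has 10 of them among 380 codons, and the last 4 of these crowd into its final stretch, shown here from codon 361 to the stop codon with each selenocysteine codon in capitals.
Selenop, coding end: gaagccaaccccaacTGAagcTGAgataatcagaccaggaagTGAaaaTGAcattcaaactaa

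In the reductases Txnrd1 and Txnrd2 the selenocysteine is the last residue but one, at codon 498 of 499 and codon 526 of 527. Selenoo likewise carries it near the end, at codon 665 of 667. In the glutathione peroxidases Gpx1, Gpx3 and Gpx4 it lies further inside, at codons 47 of 201, 73 of 226 and 73 of 197, and in Selenow it is codon 13 of 88. An exon junction follows the codon in 7 of the 9 genes with a single selenocysteine codon, at distances from 83 bases in Txnrd2 to 342 bases in Gpx4 between codon and last junction. The exceptions were Selenoo and Txnrd1, where the codon lies in the last exon. In Selenop the first codon lies 357 bases before the last junction and the other 9 lie in the last exon.

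Liver and muscle differed in which selenoprotein messengers were most abundant. In WT liver, Selenop made up 56.2% ± 1.8 (SD, n = 11) of the summed RPKM of all 24 selenoprotein genes and Gpx1 21.4% ± 1.6, while in WT muscle Selenow made up 53.4% ± 2.1, Gpx3 11.9% ± 0.83 and Gpx4 8.31% ± 0.75. The summed RPKM of the 24 genes was 6805 ± 417 in WT liver and 1732 ± 68.4 in WT muscle. The 10 members held 85.2% ± 0.79 of it in liver and 84.0% ± 0.66 in muscle.

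**Figure D1:**
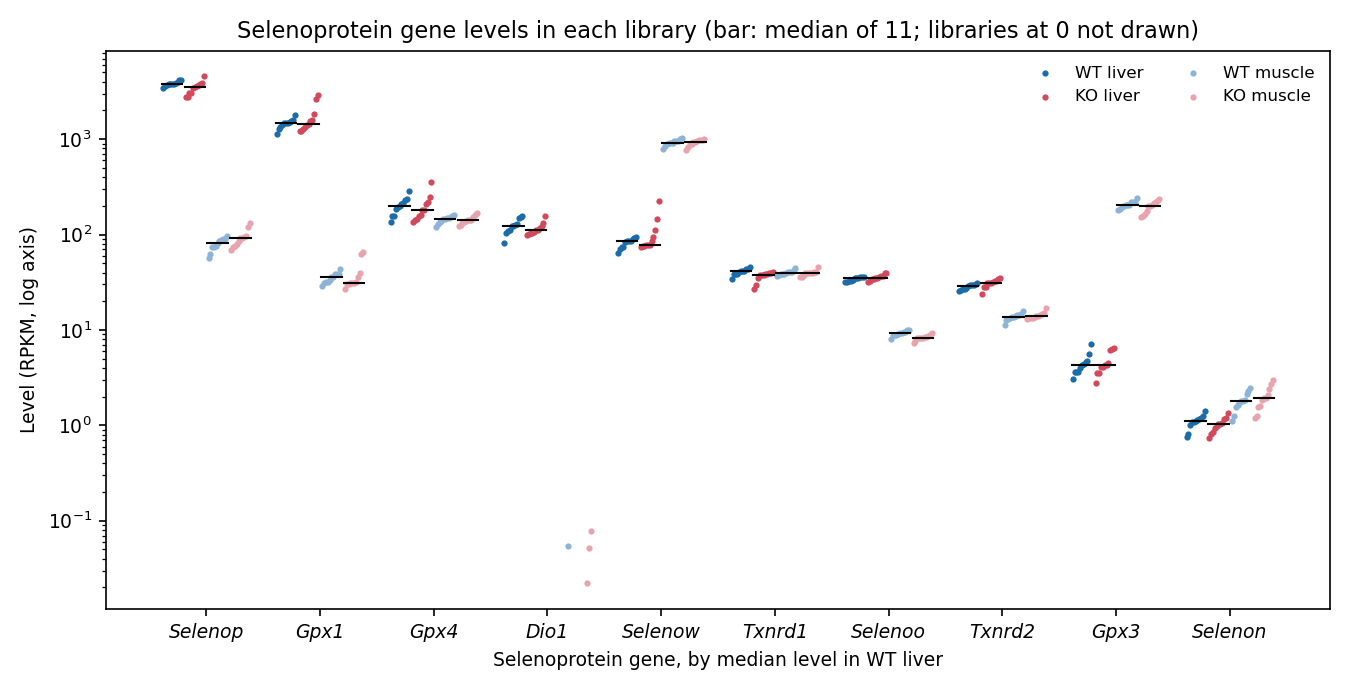
RPKM (log axis) of the 10 selenoprotein genes in each library, in 4 groups of 11 (blue WT, red KO, pale colours muscle), with the median as a bar and libraries at 0 not drawn. Selenop and Gpx1 lay at or above 1135 in every liver library, and Selenow lay at or above 777 in every muscle library.

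The secreted members went opposite ways between the tissues. Selenop had a lowest, median and highest level of 3411, 3774 and 4202 RPKM in WT liver and of 56.2, 81.8 and 96.0 in WT muscle. This was a log2 difference of 5.63 (standard error 0.09, 49.4-fold, adjusted p = 9.1e-27 by edgeR's quasi-likelihood method, adjusted over all genes tested). Gpx3, the glutathione peroxidase found in plasma, had 3.06, 4.32 and 7.19 RPKM in WT liver and 183, 202 and 241 in WT muscle. It was thus 45.8-fold higher in muscle (log2 difference -5.52, standard error 0.11, adjusted p = 1.2e-24). For both genes all 11 libraries of one tissue lay beyond all 11 of the other.

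Of the cellular glutathione peroxidases, only Gpx1 was far apart between the tissues. Gpx1, the abundant cytosolic peroxidase, had 1135, 1484 and 1791 RPKM in WT liver and 29.2, 35.5 and 43.1 in WT muscle, a log2 difference of 5.40 (standard error 0.08, 42.2-fold, adjusted p = 1.1e-27). Gpx4, which reduces lipid hydroperoxides in membranes, had 136, 199 and 283 RPKM in liver and 121, 145 and 159.9 in muscle. The ranges of Gpx4 overlapped, and its log2 difference was 0.51 (standard error 0.08, adjusted p = 1.2e-06).

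The thioredoxin reductases differed less. The cytosolic enzyme Txnrd1 had 33.985, 41.3 and 45.4 RPKM in WT liver and 36.3, 39.5 and 45.0 in WT muscle, and its log2 difference of 0.06 had a 95% interval from -0.01 to 0.13 (adjusted p = 0.136). It was the member whose tissue levels could not be told apart. The mitochondrial enzyme Txnrd2 had 25.7, 28.7 and 31.1 RPKM in liver and 11.3, 13.6 and 15.7 in muscle, a log2 difference of 1.04 (standard error 0.04, adjusted p = 1.6e-19). Selenoo, a mitochondrial pseudokinase that attaches AMP to proteins, was also higher in liver, at 31.7, 34.9 and 35.9 RPKM against 8.02, 9.19 and 10.01 (log2 difference 1.91, standard error 0.04, adjusted p = 3.8e-25). Whether the counts used strand is not given in the sources used here, and the part of reads shared with overlapping genes in the tissue differences of the members was not tested.

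The members best known from muscle were higher there, by very different amounts. Selenow, a small thioredoxin-like protein known from muscle, had 798, 919.6 and 1021 RPKM in WT muscle and 64.6, 86.0 and 94.1 in WT liver, so the tissues did not overlap (log2 difference -3.47, standard error 0.07, 11.1-fold, adjusted p = 3.3e-25). Selenon, an endoplasmic reticulum protein whose loss causes muscle disease, had 1.11, 1.81 and 2.46 RPKM in muscle and 0.763, 1.11 and 1.42 in liver. Its log2 difference was -0.66 (standard error 0.11, adjusted p = 3.4e-06), and it was the lowest member in liver with 53 to 131 reads per library. Dio1, the liver deiodinase, had 57471 reads summed over the 11 WT livers and 1 read over the 11 WT muscle libraries. The muscle libraries labelled KO held 6 reads of Dio1, in animals 568, 597 and 611, against 53427 in KO livers. Scaled to library size this was a liver to muscle ratio of 60574 in WT mice (exact 95% interval 10872 to 2.4e+06) and of 9307 in KO mice (4276 to 25362), intervals that cover counting error only.

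These tissue differences stand against a background in which most genes differed. Of all 13907 genes tested between WT liver and WT muscle, 91% passed the adjusted threshold of 0.05, and 9 of the 10 members did, 6 higher in liver (45.5% of all genes) and 3 higher in muscle (45.5%). The ranges of the 2 tissues did not overlap for 7 members, against 70.9% of all genes. The median size of the log2 difference was 2.69 over the members and 1.17 over all genes tested. In the KO mice, whose libraries the WT contrast did not use, 9 of the 10 members passed the threshold in the same directions, with and without the 4 livers that stood apart (86.7% of 13981 genes did with them), with log2 differences of 5.36 for Selenop, 5.62 for Gpx1, -5.30 for Gpx3, -3.04 for Selenow and 0.01 for Txnrd1.

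Within a tissue the order of the levels was mostly stable between mice. In WT liver, from the top, it ran Selenop, Gpx1, Gpx4, Dio1, Selenow, Txnrd1, Selenoo, Txnrd2, Gpx3 and Selenon. Neighbours with overlapping ranges were Gpx4 and Dio1, Dio1 and Selenow, and Txnrd1 and Selenoo, although Gpx4 exceeded Dio1 and Dio1 exceeded Selenow in all 11 livers, and Txnrd1 exceeded Selenoo in 10 of 11. In WT muscle the order was Selenow, Gpx3, Gpx4, Selenop, Txnrd1, Gpx1, Txnrd2, Selenoo, Selenon and Dio1, and only Txnrd1 and Gpx1 overlapped, with Txnrd1 higher in 9 of 11 libraries. In KO liver the order of the medians was that of WT liver, but fewer libraries followed it, with Txnrd1 above Selenoo in 7 of 11, Dio1 above Selenow in 9, Selenoo above Txnrd2 in 10, and Selenop above Gpx1 in 10, the exception being animal 532.

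In liver, the genotype comparison asks what loss of Slc16a13 does to these genes on HFD. After adjustment over all 13005 genes, 0 of the 10 members were below 0.05 in the quasi-likelihood test of edgeR, in DESeq2 or in limma-voom, and 3 of all genes were in edgeR (0.0231%). At an unadjusted p under 0.05 Selenow, Selenoo and Txnrd2 were higher in KO livers, 3 of 10 members, against 12.9% of all genes in either direction and 9.78% in this one. The ranges of WT and KO livers overlapped for each of the 10 members, as they did for all genes but 1 (0.00769%). The largest difference was that of Selenow, and it rested on the 4 livers that stood apart.

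**Figure D2:**
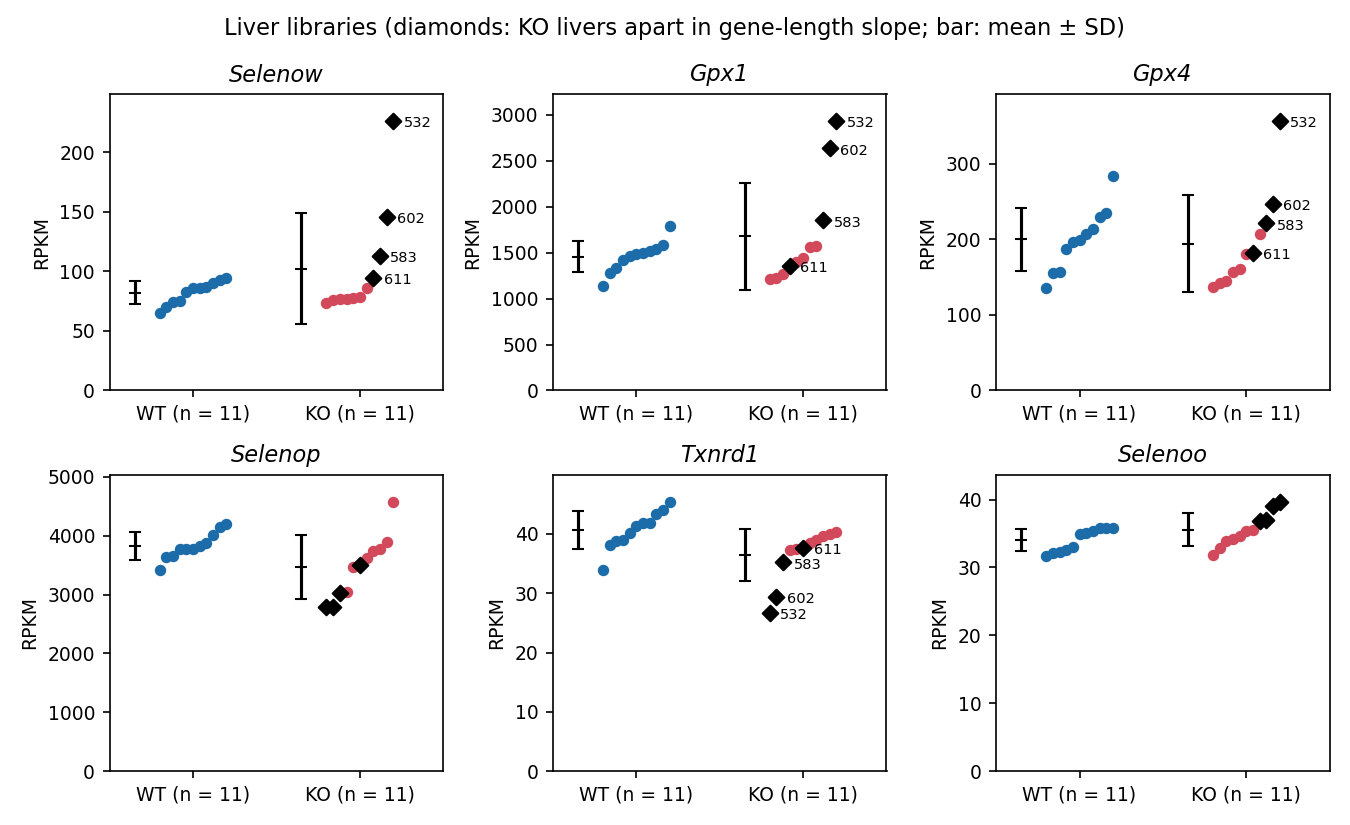
RPKM of 6 selenoprotein genes in each WT (blue) and KO (red) liver, with the 4 KO livers that stood apart in gene-length slope as black diamonds, labelled by animal number in 4 panels, and the mean ± SD of 11 beside the points. Animals 532, 602 and 583 were highest for Selenow and Gpx1, and 532 and 602 were lowest for Txnrd1.

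Selenow had 64.6, 86.0 and 94.1 RPKM (lowest, median, highest) in WT livers and 73.7, 78.3 and 226 in KO livers, with a log2 difference of 0.40 (standard error 0.18, p = 0.032, adjusted p = 0.38). The 4 libraries that stood apart were the only KO livers above the WT range, at 226 in animal 532, 146 in 602, 113 in 583 and 94.4 in 611. Without them KO livers lay between 73.7 and 85.7, and the log2 difference was -0.04 (standard error 0.06, p = 0.46).

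Gpx1 behaved alike. KO livers had 1209, 1444 and 2935 RPKM, and animals 532 (2935), 602 (2637) and 583 (1852) were above the highest WT liver (1791). The log2 difference was 0.28 (standard error 0.15, p = 0.076, adjusted p = 0.38) over all livers and -0.05 (standard error 0.07, p = 0.51) without the 4. For Gpx4, KO livers had 137, 181 and 357 RPKM, and 1 of them, animal 532, exceeded the WT range. Here the log2 difference turned from 0.07 (standard error 0.15, p = 0.66) over all livers to -0.24 (standard error 0.10, p = 0.026, adjusted p = 0.999) without the 4. Gpx3 was low in all livers and differed by 0.11 (standard error 0.15, p = 0.45) with and -0.05 (standard error 0.16, p = 0.76) without them.

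The mitochondrial members Selenoo and Txnrd2 shifted by small amounts. Selenoo had 31.9, 35.3 and 39.7 RPKM in KO livers, and the same 4 animals, at 36.8, 36.96, 39.1 and 39.7, were the only ones above the WT range. Its log2 difference was 0.13 (standard error 0.06, p = 0.039, adjusted p = 0.38) over all livers and 0.03 (standard error 0.04, p = 0.51) without them. Txnrd2 had 24.03, 30.9 and 35.4 RPKM in KO livers, of which 5 lay above and 1 below the WT range, 2 of the 5 being among the 4. It differed by 0.16 (standard error 0.07, p = 0.039, adjusted p = 0.38) and by 0.05 (standard error 0.06, p = 0.36) without them. On log2 CPM animals 583 (5.64) and 611 (5.45) also lay above the highest WT liver (5.41), and 570 (5.12) also below the lowest (5.18). At total counts of 31084170 and 25250137, animals 611 and 587 had 1315 and 1042 reads of Txnrd2 but 27.9 and 35.4 RPKM. The length implied for Txnrd2 was thus not the same in all libraries. This held for other members too. Selenon had 95 reads and 1.174 RPKM in WT liver 516 but 73 reads and 1.113 RPKM in WT liver 537, at total counts of 23490839 and 24538782. Gpx4 had 3600 reads and 214 RPKM in WT liver 612 but 4991 reads and 182 RPKM in KO liver 611, at 21588756 and 31084170. RPKM values of these members carry that difference.

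Selenop and Txnrd1 went the other way. Selenop had 2785, 3498 and 4579 RPKM in KO livers, where 4 livers lay below the WT range and 3 of these were animals 532, 602 and 583. The log2 difference was -0.08 (standard error 0.06, p = 0.20, adjusted p = 0.46) and -0.01 (standard error 0.06, p = 0.88) without the 4 libraries. Txnrd1 had 26.7, 37.6 and 40.3 RPKM in KO livers, below the WT range in animals 532 (26.7) and 602 (29.4). Its difference was -0.10 (standard error 0.06, p = 0.10) and -0.04 (standard error 0.04, p = 0.41) without them. Dio1, at 99.8, 110.3 and 156 RPKM in KO livers, was inside the WT range in all 11 animals (log2 difference -0.04, standard error 0.10, p = 0.71, and -0.07 without the 4). Selenon differed by -0.04 (standard error 0.11, p = 0.73) and by -0.10 without them.

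**Figure D3:**
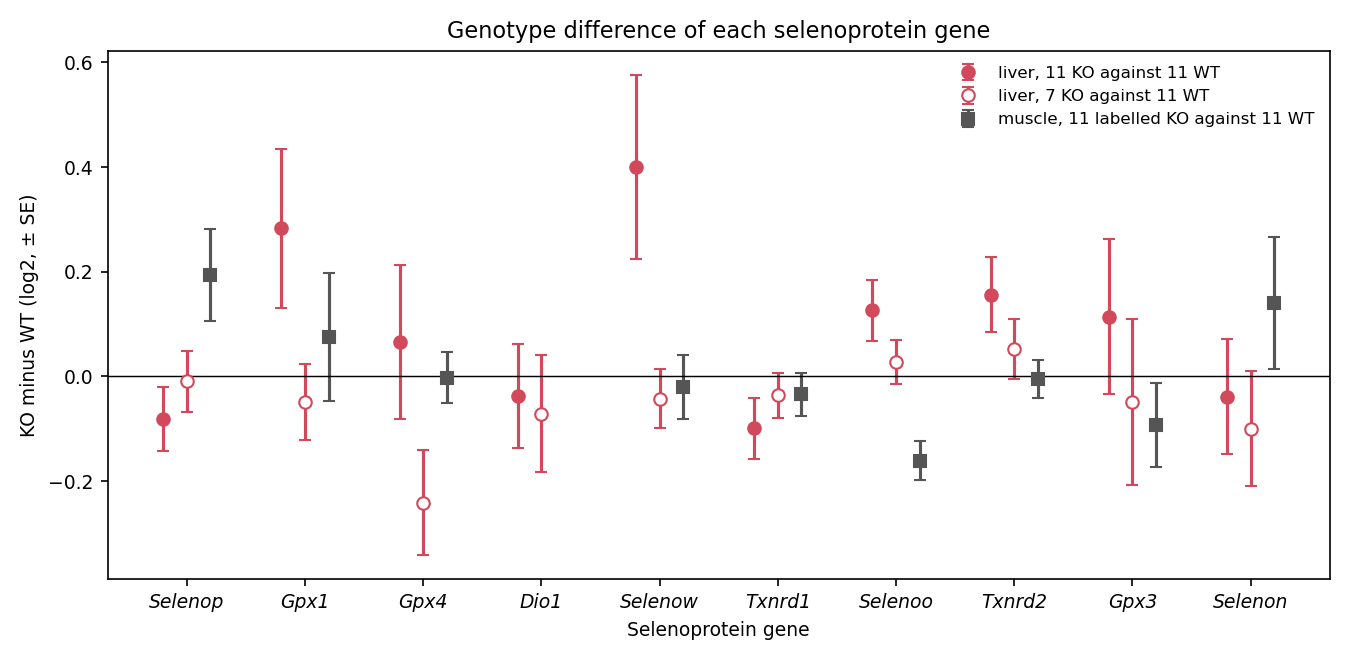
Log2 difference KO minus WT (± SE) of each member in liver with all 11 KO livers (filled red), in liver with the 7 KO livers that did not stand apart (open red), and in muscle (grey squares), with Dio1 not tested in muscle. Without the 4 livers the differences of Selenow and Gpx1 lay within 0.1 of 0.

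The mean shift of the 4 livers followed the length of the messenger across the selenoprotein genes. These livers were picked by that slope over all genes, so the relation is a description of them. Over the 20 selenoprotein genes tested in liver, their mean log2 deviation from the WT mean had Pearson's r = -0.86 and Spearman's rho = -0.85 with the gene length implied by counts and RPKM, while the mean of the other 7 KO livers had r = 0.33 and rho = 0.25. Taken singly, animals 532, 583 and 602 had r = -0.85, -0.81 and -0.85, but animal 611 had r = -0.42 (rho = -0.39). Among the other 7, r ran from -0.18 in animal 570 to 0.65 in animal 561. Genes of 1 library share its depth and are not independent. Among short genes, Selenow (736 bases) deviated by 0.88, Gpx4 (824 bases) by 0.46 and Gpx1 (1041 bases) by 0.67 in the 4 livers, but the non-member Selenof (1005 bases) by 0.11. Among long genes, Txnrd1 (3417 bases) deviated by -0.21 and the non-member Selenoi (5662 bases) by -0.82. The longest member, Selenon (3445 bases), was at 0.05 and Selenoo (2396 bases) at 0.29, so not every gene followed its length. With each library's dependence on length removed, Selenow differed between genotypes by 0.14 (p = 0.098), Gpx1 by 0.10 (p = 0.28) and Gpx4 by -0.15 (p = 0.084), while Selenoo was at 0.15 (p = 0.024, adjusted p = 0.53) and Txnrd2 was at 0.07 (p = 0.31). Of the non-members, Msrb1 was then at 0.17 (p = 0.0039, adjusted p = 0.53). Among the 11 WT livers, at smaller slopes, the slope correlated with the log2 CPM of Selenow (r = -0.74, permutation p = 0.0080, adjusted p = 0.028; rho = -0.76, p = 0.0085, adjusted p = 0.044) and r was -0.54 without the 2 livers farthest from the median slope. The adjustment is over 20 relations of members with slope, 10 in each genotype, and Selenow and Gpx1 were the 2 members of 10 that passed by r in WT livers. The slope itself was fitted over all genes, and the share of them that would pass was not computed. For Gpx1 r was -0.74 (p = 0.0042, adjusted p = 0.021) and rho -0.58 (p = 0.066, adjusted p = 0.19), with r = -0.48 without the farthest 2. For the long Txnrd1, r in WT livers was -0.33 (p = 0.32; rho = -0.10, p = 0.78), against the direction of the 4 livers, where low slopes went with low Txnrd1.

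**Figure D4:**
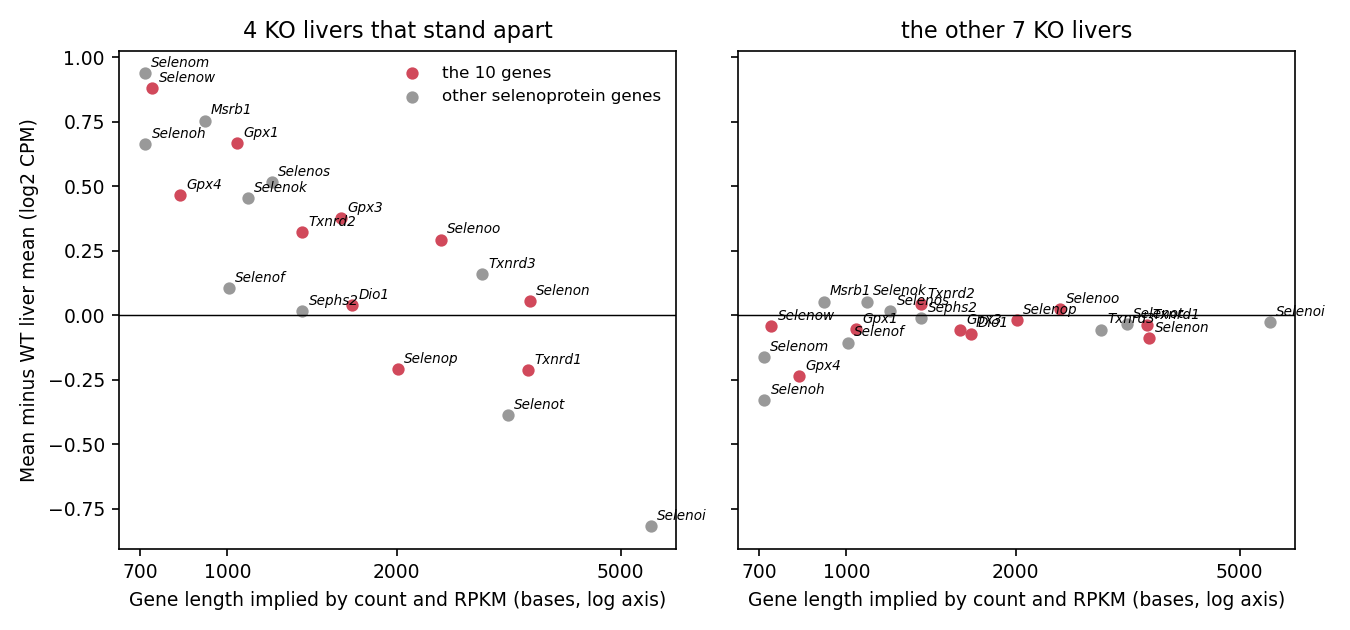
Mean log2 CPM of KO livers minus the WT liver mean against gene length (bases, log axis) for 20 selenoprotein genes, in the 4 KO livers that stood apart (left) and the other 7 (right), members in red. On the left short genes such as Selenow lay above 0 and Selenoi below it.

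Marker sums differed in the same 4 livers too. These livers were picked by gene-length slope, and the sums were not corrected for each library's dependence on length. Whether the sums reflect the share of cell types was not tested. The summed RPKM of 5 erythroid genes was 499, 704, 746 and 641 in animals 611, 583, 602 and 532, against 208 to 367 in the other 7 KO livers and 252 to 424 in WT livers. The sum of 6 macrophage genes was 538 in animal 532, against 127 to 226 in the other KO livers and 136 to 187 in WT livers. The 8 hepatocyte genes summed to 83913 to 105630 RPKM in the 4 and to 68909 to 84522 in all other livers. The endothelial sum went the other way, at 27.8, 29.9 and 35.04 in animals 602, 532 and 583 and 41.9 in 611, against 40.2 to 48.3 in WT livers and 40.7 to 49.8 in the other 7 KO livers. Their part in the values of the members was not tested.

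In muscle, Selenoo was the member with the smallest p-value. It had 8.02, 9.19 and 10.01 RPKM in WT muscle and 7.31, 8.32 and 9.19 in the libraries labelled KO, of which 2 lay below the WT range and 0 above it. The log2 difference was -0.16 (standard error 0.04, p = 0.00024) with an adjusted p of 0.44, so it did not pass the threshold. Among all 13266 genes 1 passed it (0.00754%), among the 9 members tested 0 did in edgeR, DESeq2 or limma-voom, and 2 of 9 had an unadjusted p under 0.05, against 8.64% of all genes. The gene Tubgcp6 overlaps Selenoo on the opposite strand, with a median of 599 reads in WT muscle and 606 in the libraries labelled KO. The library kit keeps the strand, but whether the counting used it is not given in the sources used here.

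Selenop was the other member with an unadjusted p under 0.05 in muscle. It had 56.2, 81.8 and 96.0 RPKM in WT muscle and 69.3, 91.8 and 134 in those labelled KO, a log2 difference of 0.19 (standard error 0.09, p = 0.039, adjusted p = 0.54). The highest values were 134 in animal 561 and 119 in animal 611, and 3 libraries labelled KO were above the WT range. Gpx1 was also highest in these animals, at 65.0 and 62.8 RPKM against at most 39.98 in the other libraries labelled KO and 43.1 in WT muscle. Selenon was highest there too, at 2.95 and 2.69, and Gpx3 lowest, at 153 and 156 against at least 163 in every other muscle library.

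Both animals stood out in the markers of other cells. The 6 adipocyte genes, all detected in muscle, summed to 699 RPKM in animal 561 and 510.3 in animal 611, against 92.1 to 184 in the other 9 libraries labelled KO and 66.1 to 260.0 in WT muscle. The 8 hepatocyte genes summed to 33.4 and 21.6 RPKM there, against at most 12.4 in any other muscle library, and the 6 macrophage genes to 103 and 112, against at most 70.4. The endothelial genes summed to 76.3 and 83.0, against at most 69.0, and the erythroid genes to 365 in animal 611, against at most 172 in any other muscle library. Their part in the values of the members was not tested. Without these 2 libraries, an alternative chosen after seeing the data, the log2 difference of Selenop was 0.10 (p = 0.20), that of Gpx1 turned from 0.08 (p = 0.54) to -0.13 (p = 0.057), and that of Selenoo was -0.14 (p = 0.00093, adjusted p = 0.39). Gpx3 differed by -0.09 (p = 0.26) with them and -0.01 (p = 0.89) without them.

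**Figure D5:**
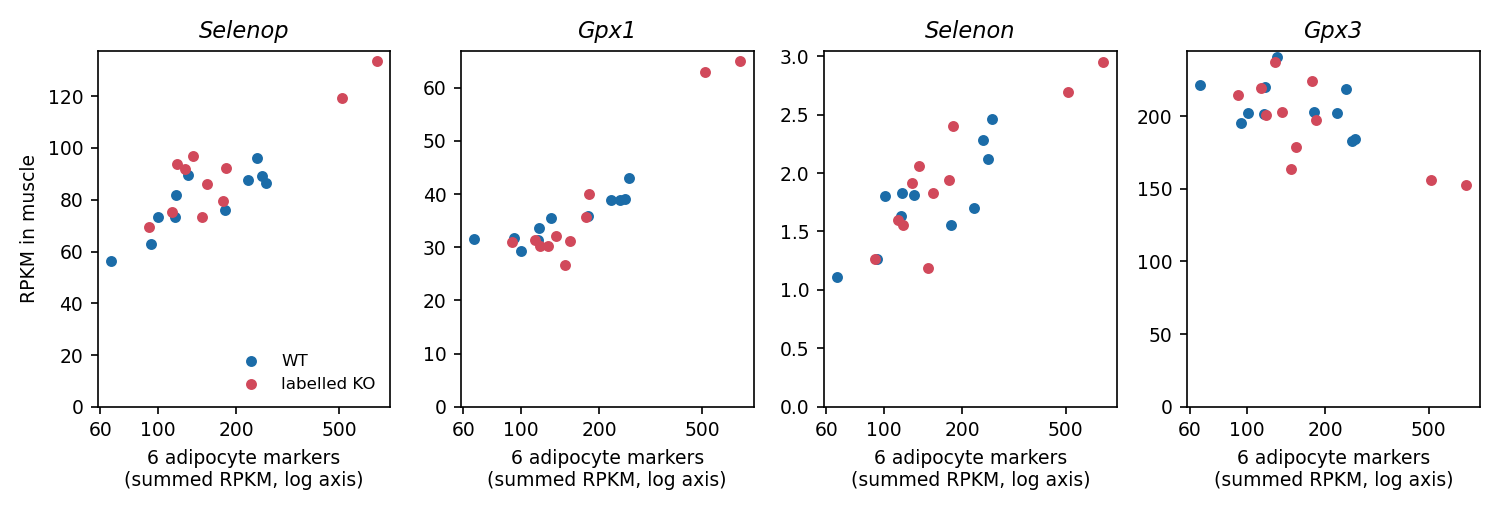
RPKM of Selenop, Gpx1, Selenon and Gpx3 in each muscle library against the summed RPKM of 6 adipocyte marker genes (log axis), WT in blue and libraries labelled KO in red. Animals 561 and 611 are the red points farthest to the right, highest for Selenop, Gpx1 and Selenon and lowest for Gpx3.

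The relation to adipocyte markers was present among WT muscles alone. Over the 11 WT libraries the log2 CPM of Selenop had r = 0.85 with the log2 marker sum (permutation p = 0.00041, adjusted p = 0.0057; rho = 0.81, p = 0.0039, adjusted p = 0.023), and r = 0.79 without the 2 libraries farthest from the median. Selenon had r = 0.85 (p = 0.00063, adjusted p = 0.0057; rho = 0.87) and 0.70 without the farthest 2, and Gpx1 r = 0.85 (p = 0.0013, adjusted p = 0.0061; rho = 0.82) and 0.91. In the opposite direction, Txnrd2 had r = -0.77 (p = 0.0076, adjusted p = 0.014; rho = -0.75) and Gpx3 r = -0.75 (p = 0.0067, adjusted p = 0.014; rho = -0.67), which were -0.71 and -0.56 without the farthest 2. The adjustment is over 18 relations, 9 members in each genotype, and in WT muscle 8 of 9 members passed it by r and 5 by rho. The share of all genes that would pass was not computed, so these counts are not a trait of the members. The sums of the other cell markers were not correlated with the members. In WT muscle the adipocyte sum, the macrophage sum and Selenon were each lowest in animal 536 and highest in animal 624. Whether the relations are particular to adipocyte markers was therefore not tested. In the libraries labelled KO, Selenop had r = 0.84 with animals 561 and 611 and 0.36 without them, and Gpx1 0.93 and 0.44, so these relations rest on the 2 libraries. Selenon depended less on them, with r = 0.76 and 0.59 without them (rho = 0.78 over all 11, p = 0.0061, adjusted p = 0.027). Of the negative relations, Gpx3 had r = -0.82 and -0.35 without them, and Txnrd2 -0.43 (permutation p = 0.16) and -0.09. Gpx4 went the other way, from -0.34 to -0.70.

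Of the remaining members, Selenow, Gpx4, Txnrd2 and Txnrd1 hardly differed in muscle. Selenow had 798, 919.6 and 1021 RPKM in WT and 777, 936 and 1005 in the libraries labelled KO, with a log2 difference of -0.02 and a 95% interval from -0.14 to 0.10. Gpx4 differed by -0.00 (95% interval -0.10 to 0.09), Txnrd2 by -0.00 (-0.07 to 0.07) and Txnrd1 by -0.03 (-0.11 to 0.05). Selenon was at 0.14 with a wider interval, from -0.11 to 0.39, on 89 to 327 reads per library, so whether it differed is not known.

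Whether the genotype difference itself differed between tissues was tested over all 44 libraries. No member passed the adjusted threshold, which 1 of 14739 genes did (0.00678%), namely Slc16a13, while at an unadjusted p under 0.05 stood 16.2% of all genes. Selenoo came nearest, with a difference of differences, liver minus muscle, of 0.30 on the log2 scale (standard error 0.07, p = 0.00014, adjusted p = 0.196). DESeq2 gave it 0.30 with an adjusted p of 0.042, the lowest of its alternatives, which ran up to 0.59, and limma-voom called 0 members. Selenow (0.43, standard error 0.19, p = 0.031), Txnrd2 (0.17, standard error 0.08, p = 0.041) and Selenop (-0.27, standard error 0.12, p = 0.032) also had an unadjusted p under 0.05. Dio1 was the fifth member under it, but with at most 3 reads in each muscle library no value is given. Without the 4 livers that stood apart Selenoo was at 0.19 (p = 0.0020, adjusted p = 0.59), Selenow at -0.02 (p = 0.79), Txnrd2 at 0.06 (p = 0.38) and Selenop at -0.20 (p = 0.11). Without the 2 muscle libraries Selenoo was at 0.27 (p = 0.00042, adjusted p = 0.22) and Selenop at -0.17 (p = 0.11), while Gpx1 went from 0.22 (p = 0.29) to 0.42 (p = 0.025, adjusted p = 0.33).

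Because both tissues came from the same animals, the level of a member in liver could be set against its level in muscle. On log2 CPM, over the 9 members measurable in both tissues and both genotypes, 18 relations over 11 mice each, 0 were below 0.05 after adjustment and 1 was below it before. This was Gpx4 in WT mice, with r = -0.73 (permutation p = 0.011, adjusted p = 0.198) and rho = -0.68 (p = 0.025, adjusted p = 0.45), and r was -0.44 without the 2 mice farthest from the median. For Selenop, made in liver and taken up by muscle, r between the messenger levels was 0.05 in WT (p = 0.88) and 0.13 in KO mice (p = 0.69). These values depended on the scale. On log2(RPKM + 1), again 0 of 18 passed after adjustment, and those below 0.05 before it were Gpx1 in WT mice (r = 0.62, permutation p = 0.041, adjusted p = 0.36; rho = 0.61, p = 0.052) and Txnrd2 in KO mice (r = -0.66, p = 0.037, adjusted p = 0.36; rho = -0.36, p = 0.27). On that scale Gpx4 in WT mice was at r = -0.54 (p = 0.085) and Selenop in WT mice at r = 0.51 (p = 0.10; rho = 0.58, p = 0.065), with r = 0.27 for Selenop without the 2 mice farthest from the median.

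Among the 14 selenoprotein genes outside the list, 10 were tested in liver and 0 passed the adjusted threshold. Over all 20 tested selenoprotein genes 13 were higher and 7 lower in KO livers by the fitted sign, where 48.9% of all genes were higher. Their median log2 difference was 0.09, against -0.01 over all genes tested. Without the 4 livers 5 were higher and 15 lower, where 6647 of 13210 genes were higher, with a median of -0.04 against 0.00. Msrb1, which reduces oxidised methionine, had the smallest p in liver (log2 difference 0.36, standard error 0.12, p = 0.0070, adjusted p = 0.38), and Selenok, a protein of the endoplasmic reticulum membrane, came next (0.21, p = 0.024). Without the 4 livers these were at 0.06 (p = 0.14 and p = 0.42), and the smallest p was that of Selenoh, a nuclear selenoprotein, which went from 0.14 (p = 0.47) to -0.35 (p = 0.0028, adjusted p = 0.999). In muscle 7 were higher and 13 lower, where 53.7% of all genes were higher, with a median of -0.01 against 0.01 over all genes, and Selenoh had the smallest p after Selenoo (log2 difference -0.29, standard error 0.10, p = 0.0057, adjusted p = 0.49).

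The genes that make and insert selenocysteine were higher in liver for the most part. Of the 10 genes of synthesis, insertion and recycling, 7 were higher in WT liver than WT muscle, 2 were lower and 1 did not pass the threshold. Of all genes tested, 45.5% were higher in liver and 45.5% lower. The 4 with the largest log2 differences were Sephs2, the selenophosphate synthetase and itself a selenoprotein (4.59), the selenocysteine lyase Scly (3.64), Sepsecs, which completes selenocysteine on its tRNA (2.65), and Eefsec (2.50). Secisbp2 was the gene that did not pass (log2 difference -0.09, adjusted p = 0.058). Between genotypes 0 of the 10 passed in either tissue, and the smallest p-values in liver were those of Sars, which charges the tRNA with serine (0.21, p = 0.018), and Trnau1ap (0.29, p = 0.051). Without the 4 livers Sars was at 0.03 (p = 0.45) and Trnau1ap at -0.03 (p = 0.59). Of the 10 genes 4 were then higher and 6 lower, where 6647 of 13210 genes were higher, with 0 of the 10 at an unadjusted p under 0.05. In muscle the smallest p-values were those of Trnau1ap (0.11, p = 0.071) and Secisbp2 (-0.09, p = 0.088). Of the receptors that take up selenoprotein P, Lrp1 and Lrp2 were tested, and Lrp1 had a liver to muscle log2 difference of 3.60 in WT mice. Lrp2 was low in both tissues, with 245 reads summed over the 11 WT livers and 21 over the 11 WT muscle libraries. Lrp1 differed between genotypes by -0.12 in liver (p = 0.34; 0.12, p = 0.10 without the 4 livers) and 0.11 in muscle (p = 0.36), and Lrp2 by -0.07 in liver (p = 0.83; -0.09 without the 4).

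The redox partners without selenocysteine were measured beside the members. All 21 genes of this list differed between WT liver and WT muscle, as 91% of all genes did, and 15 were higher in liver (45.5% of all genes). The largest log2 differences were those of Cat, the catalase (4.33), Gclc, which starts glutathione synthesis (4.12), the peroxiredoxin Prdx4 (4.05) and Msrb3, a methionine sulfoxide reductase (-3.87). Between genotypes 0 of the 21 passed in liver or muscle. The smallest p-values were those of Prdx4 (0.29, p = 0.024) and Sod1, the cytosolic superoxide dismutase (0.36, p = 0.028), in liver, and of the mitochondrial thioredoxin Txn2 (-0.09, p = 0.044) and Prdx4 (0.31, p = 0.045) in muscle. The median log2 difference of the list was 0.03 in liver and 0.01 in muscle. Without the 4 livers 6 were higher and 15 lower in KO, where 6647 of 13210 genes were higher. The median of the list was then -0.05, against 0.00 over all genes. Prdx4 was at 0.03 (p = 0.61) and Sod1 at -0.04 (p = 0.37), and the smallest p was that of Gss, the glutathione synthetase (-0.17, p = 0.0046, adjusted p = 0.999).

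For each member the gene most like it was sought among 11607 genes over the 22 WT libraries, each centred on its tissue's mean log2 CPM. The libraries share depth and composition, so the values are a description. Gpx4 was most like Tprgl (r = 0.91), Selenow most like Bsg (r = 0.90), Selenon most like Evi2b (r = 0.89), Selenop most like Ly86 (r = 0.89) and Gpx3 most like Mapkapk3 (r = 0.86). Txnrd1 was most like Rere (r = 0.81), Gpx1 most like Cdc42ep1 (r = 0.77), Selenoo most like Fam120aos (r = 0.71) and Txnrd2 most like Cacfd1 (r = 0.66), and Dio1, over the 11 WT livers alone, most like Ocstamp (r = 0.92). For Selenop the likeness came from muscle, where r with Ly86 was 0.97, against 0.08 in liver. No member was the gene most like another, and among pairs of members the highest r was that of Selenop and Selenon (0.60), followed by Selenow and Gpx4 (0.56).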

How the data were processed

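The authors deposited raw read counts per gene, not normalized, and RPKM values (reads divided by gene length and library size) for 44 libraries. Poly(A) RNA was prepared with a strand-keeping kit and sequenced as single-end reads. The aligner, counting program and genome build are not given in the sources used here, and the libraries of each sequencing pool are not named. Gene lengths were the median over libraries of the length that a count and its RPKM value imply. For members such as Txnrd2, Selenon and Gpx4 that length was not the same in all libraries.

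The labels gave genotype, tissue and an animal number, and libraries of both tissues were paired by that number as coming from 1 mouse. Deviations of a mouse's liver and muscle libraries from their group means correlated with a mean r of 0.10 in both genotypes, against -0.01 between different mice. Members and gene lists were chosen with earlier results of these data known.

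The counts were tested with edgeR 4.0.16 in R 4.3.3 (filterByExpr, TMM, quasi-likelihood F-test, Benjamini-Hochberg adjustment over all genes tested, threshold 0.05). Alternatives were DESeq2 1.42.0, limma 3.58.1 (voom), library size alone, no filter, at least 10 counts in every library, gene length removed by a loess with span 0.3, mouse as replicate block, limma on log2(RPKM + 0.1) and log2(RPKM + 1), and the fits without the 4 livers. These livers had a slope on log2 gene length over 0.1 below that of the lowest WT liver. Log2 CPM used a prior count of 2. Correlations over libraries had two-sided permutation tests with 1e+05 resamples. A member with at most 3 counts in every library of a group (Dio1 in muscle) was given a ratio of summed reads with its counting interval and no fitted fold, and no sample column was left unused. The lowest chi-square per gene of any 2 libraries of a group was 4.47, so each counted as its own sample. The fits were tested on simulated counts with changed genes before use.

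Named are all members, Slc16a13, and from each list the genes past the threshold in a genotype comparison or, where none passed, the 2 with the smallest p, and for tissue the 4 with the largest log2 difference. Ccdc152 overlaps Selenop and Tubgcp6 overlaps Selenoo on the opposite strand, and Gm38560 and Gm47073 overlap Txnrd1 there too, so their reads may be shared if strand was not used. Eid3 overlaps Txnrd1 on the same strand, so reads may be shared in either case. Another overlap is not reported here. A copy of Gpx4, Gpx4-ps2, was not analysed here. Sequences came from the GRCm38 transcripts and GENCODE annotation.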

Additional observations from a re-analysis of the deposited data

How the results depend on the processing

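Depth limited Dio1 in muscle (at most 3 reads per library), and RPKM values carry no interval. In muscle the standard error of the genotype difference was 0.13 for Selenon and 0.12 for Gpx1, which had more reads. The part of depth in these was not tested. No member changed its call between genotypes within liver or within muscle under any alternative run, in the interaction Selenoo passed the threshold in DESeq2 alone (0.30, adjusted p = 0.042, against 0.196 in edgeR), and the tissue directions of 8 of the 9 members measurable in both tissues were the same under all of them. Scaling by library size alone moved the median of all genes between KO liver and KO muscle by -0.12.

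Genes called in liver were 3 and became 6 in DESeq2 and 1 with at least 10 counts in every library. In muscle 1 gene was called, and 0 with limma-voom, no filter, at least 10 counts, RPKM with either pseudocount, or without the 2 muscle libraries high in adipocyte markers. In the interaction 1 gene was called, against 15 in DESeq2, 3 with library size alone, 2 with gene length removed, without the 4 livers or without the 2 muscle libraries, and 0 with at least 10 counts. With mouse as replicate block, the paired fits called 12674 genes between tissues in WT mice (12653 unpaired), 12107 in KO mice (12117) and 1 in the interaction, and changed no call of a member.

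Fitted signs turned for the following members, for Selenow and Gpx1 without the 4 livers from 0.40 and 0.28 in liver and from 0.43 and 0.22 in the interaction, and the cause was not tested. In liver Gpx4 was at -0.013 with library size alone, -0.15 with length removed, and -0.071 on RPKM with either pseudocount, Selenon at 0.088 and Txnrd1 at 0.0067 with length removed, and without the 4 livers Selenow was at -0.042, Gpx1 at -0.049, Gpx3 at -0.048 and Gpx4 at -0.24. In muscle Gpx4 was at 0.017 and Txnrd2 at 0.013 with library size alone, Selenow at 0.0037 and Gpx4 at 0.014 with length removed, Txnrd2 at 0.047 and 0.044 on RPKM with pseudocounts 0.1 and 1, and without the 2 muscle libraries Selenow was at 0.043, Gpx1 at -0.13, Gpx4 at 0.0015 and Txnrd2 at 0.013. Between tissues Txnrd1 was at -0.0091 in WT mice with length removed, and in KO mice at -0.014 in DESeq2, -0.11 with library size alone, -0.042 with at least 10 counts and -0.014 without the 2 muscle libraries. In the interaction Gpx4 was at -0.030 with library size alone, -0.15 with length removed and -0.24 without the 4 livers, Txnrd1 at 0.070 with length removed, and Selenow at -0.024 and Gpx1 at -0.12 without the 4 livers.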

Other observations

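Thyroid hormone is activated by Dio1, and a list of 7 genes linked to it in liver held Dio1 and, beside genes that respond to it, the receptors Thra and Thrb. All 7 were lower in KO livers by the fitted sign, where 48.9% of all genes were higher. Their median log2 difference was -0.26, against -0.01 over all genes, and 0 passed the adjusted threshold in edgeR. The smallest p-values were those of the malic enzyme Me1 (-0.30, standard error 0.11, p = 0.011, adjusted p = 0.38) and the glycerol phosphate dehydrogenase Gpd2 (-0.29, standard error 0.14, p = 0.043), which made 2 of 7 with an unadjusted p under 0.05, against 12.9% of all genes. Without the 4 livers that stood apart 2 were higher and 5 lower, where 6647 of 13210 genes were higher. The median was then -0.06, against 0.00 over all genes, with 0 of the 7 at an unadjusted p under 0.05. In muscle 3 of 6 were higher, against 53.7% of all genes, and the smallest p-values were those of the receptors Thra (-0.06, p = 0.077) and Thrb (0.05, p = 0.27). In WT mice the largest liver to muscle log2 differences, beside Dio1, were those of Thrsp (3.41), Gpd2 (-2.12) and Thra (-1.84).

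Txnrd1 is among the 9 tested target genes of the transcription factor NRF2. By the fitted sign 1 of the 9 was higher and 8 were lower in KO livers, with and without the 4 livers. Of all genes, 48.9% were higher with the 4 livers and 6647 of 13210 without them. The median log2 difference of the 9 was -0.10 with and -0.12 without them, against -0.01 and 0.00 over all genes. In both settings 0 of the 9 passed the adjusted or the unadjusted threshold. Gclc had the smallest p (-0.25, p = 0.056), followed by Txnrd1 (p = 0.10). In muscle 2 of 8 were higher, against 53.7% of all genes, and Srxn1 (-0.10, p = 0.31) and Gclc (-0.08, p = 0.38) had the smallest p-values. Between WT liver and WT muscle the largest log2 differences were those of Ephx1 (5.59), Gclc (4.12), Gclm (3.05) and Gstm1 (2.93).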
